A study of Mus musculus with 2 samples.

Results

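Cytosolic ribosomal protein genes encode the proteins of the large and small subunits of the ribosome that works in the cytosol. Genes were taken by symbol from the protein-coding genes of the GENCODE annotation: symbols of Rpl or Rps followed by a digit, and Rpsa, Rplp0, Rplp1 and Rplp2, without the Rps6k kinases and Rps19bp genes. This gave 91 genes of 21853, 57 for the large subunit and 34 for the small subunit. Of these, 77 had the symbol of a standard subunit protein and 14 had a symbol of a paralog or retrogene-like copy, such as Rpl3l, Rpl22l1, Rps27rt or Rpl9-ps6. Open chromatin had been mapped by ATAC-seq, which uses a transposase to tag accessible DNA, in G1E-ER4 mouse erythroid cells. This male C57BL/6J line, per the labels, has GATA1 restored, and as background it is a Gata1-null line that carries a GATA1 fused to the ligand-binding part of an estrogen receptor. All cells were exposed to 17beta-estradiol at 10 nM for 24 hours, there was no untreated group, and replicates 1 and 2 were libraries of 50000 cells from separate biosamples of 1 donor.

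Ribosomes are the machines of protein synthesis, and ribosomal protein genes are classed as housekeeping genes. Their messages usually begin with a C and a run of pyrimidines, the 5′ terminal oligopyrimidine (TOP) layout, through which the mTOR pathway controls their translation. In the erythroid lineage the family is known for Diamond-Blackfan anemia, a failure of red cell production caused in most patients by loss of 1 copy of a ribosomal protein gene. Many introns of the family hold small nucleolar RNA (snoRNA) genes, which guide the modification of ribosomal RNA.

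The sequences below run from 120 bases before to 25 bases from the main annotated start, on GRCm38, 5′ to 3′ on the gene's strand. They show the promoters of the 3 genes with the strongest signal, of 2 of the 3 with the weakest (Rpl7a and Rpl36), of the 5S partner Rpl5, of Rps19, the gene most often affected in Diamond-Blackfan anemia, and of Rpsa. Capitals mark the letters of 5 short motifs, on either strand: CCGGAA (core of ETS factor sites), AAGATGG (YY1), TATAAA (letters found in boxes bound by TBP), TCTCGCG (part of the ZBTB33 element) and CTTTCC (a pyrimidine run). A match is a description of the letters and not a site.
Rplp0, chr5:115559347-115559491, plus strand: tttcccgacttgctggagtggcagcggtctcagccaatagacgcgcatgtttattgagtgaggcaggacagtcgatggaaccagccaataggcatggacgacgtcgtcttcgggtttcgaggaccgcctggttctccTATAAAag
Rps27l, chr9:66945966-66946110, plus strand: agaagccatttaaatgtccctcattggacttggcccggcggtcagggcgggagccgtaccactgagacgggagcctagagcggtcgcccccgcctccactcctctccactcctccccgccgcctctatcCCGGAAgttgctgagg
Rpl11, chr4:136053369-136053513, minus strand: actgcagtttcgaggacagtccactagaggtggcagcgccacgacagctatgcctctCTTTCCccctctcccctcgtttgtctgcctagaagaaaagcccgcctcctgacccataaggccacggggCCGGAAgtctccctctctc
Rpl7a, chr2:26910644-26910788, plus strand: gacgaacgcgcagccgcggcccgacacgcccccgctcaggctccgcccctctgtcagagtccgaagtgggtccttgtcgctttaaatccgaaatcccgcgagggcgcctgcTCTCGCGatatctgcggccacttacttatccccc
Rpl36, chr17:56613296-56613440, plus strand: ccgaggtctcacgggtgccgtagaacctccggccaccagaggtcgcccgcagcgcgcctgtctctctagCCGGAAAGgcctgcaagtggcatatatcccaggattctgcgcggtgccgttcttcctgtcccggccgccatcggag
Rpl5, chr5:107900382-107900526, plus strand: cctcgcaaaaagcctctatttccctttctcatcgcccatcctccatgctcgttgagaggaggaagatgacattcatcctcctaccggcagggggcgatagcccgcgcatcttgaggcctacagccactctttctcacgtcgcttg
Rps19, chr7:24884251-24884395, plus strand: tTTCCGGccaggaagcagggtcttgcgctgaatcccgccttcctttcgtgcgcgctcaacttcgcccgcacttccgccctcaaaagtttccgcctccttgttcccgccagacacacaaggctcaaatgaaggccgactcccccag
Rpsa, chr9:120127569-120127713, plus strand: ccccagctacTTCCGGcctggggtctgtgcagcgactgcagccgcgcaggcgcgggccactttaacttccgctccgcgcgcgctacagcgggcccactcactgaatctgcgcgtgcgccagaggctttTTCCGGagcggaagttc
Rpl7a, among the weakest 3, carries TCTCGCG just before the start. Rps27l and Rpl11, among the strongest 3, carry the ETS letters a few bases after the start. Rpl5 has none of the 5 motifs in this window.

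The deposited peak lists were merged into 20080 regions in the conservative list, which the authors made from peaks reproducible between both libraries, and into 14012 regions in replicate 1 and 15564 in replicate 2. Read depth is unknown, so precision is shown through the spread between the libraries. The line's identity was checked with fixed markers: 9 of 10 erythroid genes had a promoter region, as did 2 of 3 megakaryocyte genes, against 0 of 3 genes each for T cells, B cells, neutrophils, macrophages and hepatocytes. The erythroid gene with none was Alas2. Of the 9 with a region, 5 were in both libraries' own lists (55.6%), against 88.7% of all genes with a promoter region. Their peak signal was low, at a median percentile of 16.9 among such genes. With 1 group and 2 libraries there is no test between conditions, and a family chosen with results known was given no p-value. It is described beside all genes.

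In the conservative list, the promoter of every standard ribosomal protein gene was open. A gene was called open where a conservative region reached within 1 kb of a start site of a coding transcript. This held for 81 of the 91 genes, or 89.0% (95% Wilson interval 80.9 to 93.9), against 42.3% of all protein-coding genes. The interval covers counting error over genes only and does not measure the spread between libraries. A region was found for all 77 standard genes, 46 of the large and 31 of the small subunit, but for only 4 of the 14 copies. Of the 77 standard genes, 72 were in replicate 1's own list and 75 in replicate 2's. With 1 start site per gene, 77 of the 91 genes were open in the conservative list, against 39.8% of all genes. In the libraries' own lists, 76 of the 91 genes were open in replicate 1, where 38.8% of all genes were, and 79 were open in replicate 2, where 39.9% of all genes were. The mean over the libraries was 85.2% ± 2.33 for ribosomal protein genes and 39.3% ± 0.79 for all genes (SD, n = 2). The family's share was thus far above the background in each library, by many times the spread between them. Other housekeeping families had shares of the same order: 77 of 78 mitochondrial ribosomal protein genes and 32 of 32 proteasome subunit genes were open.

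The 4 open copies were Rps27l, Rpl7l1, Rpl22l1 and Rpl36al, and all of them were also in both libraries' lists. Rps27l encodes a variant of the small subunit protein Rps27 and had the second strongest promoter signal of the family, at 20.5 in the conservative list, 18.7 in replicate 1 and 15.8 in replicate 2. Rpl7l1 had a signal of 19.0, with 15.8 in replicate 1 and 16.3 in replicate 2. Rpl22l1, the paralog of Rpl22, had 16.8, with 16.3 in replicate 1 and 15.1 in replicate 2. Rpl36al had 13.0, with 13.0 in replicate 1 and 11.7 in replicate 2. So 3 of the 4 open copies lay above the median of all open genes, which was 13.9.

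The 10 genes without a promoter region were Rpl3l, Rpl10l, Rpl39l, Rps27rt, Rpl10-ps3, Rpl36-ps4, Rpl36a-ps1, Rpl9-ps1, Rpl9-ps6 and Rps12-ps3. Rpl3l is known as the form of Rpl3 of heart and skeletal muscle, and Rpl10l and Rpl39l are known for their use in male germ cells. All 10 were also missing from both libraries' own lists, before as well as after the reproducibility threshold. A looser list of the pooled libraries, in which 46.9% of all genes had a promoter region, added 1 of them, Rpl9-ps6, at a signal of 4.46. Near-identical copies can share reads with their parent gene. The placing of such reads is a step not given in the sources used here, so the lack of a region at a retrogene-like copy is uncertain. Processed pseudogenes of the family were counted by overlap with the pseudogene itself. A region overlapped 2 of 301 (0.664%), near the share of processed pseudogenes in all, at 78 of 10236 (0.762%). The placing of reads is as uncertain there. The region at Rpl29-ps2 had its summit 47 bases from a coding start, and the region at Rpl31-ps8 was in neither library's own list.

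The promoters were open but of middling signal. The signal is the authors' enrichment value of a peak, and the strongest peak of the promoter region was taken for each gene. Open ribosomal protein genes had a median signal of 13.6, with a range of 5.59 to 22.0, and all open genes had a median of 13.9. Placed among all open genes, the family's median percentile was 47.4 in the conservative list, 45.1 in replicate 1 and 41.5 in replicate 2. The family was therefore near or a little below the middle in every list. Only 4 of the 81 genes were in the strongest 10% of open genes and 4 in the weakest 10%, and 35 of 81 lay above the median of all open genes. The large subunit's 49 open genes had a median percentile of 42.3 and the small subunit's 32 had 50.6, with 43.0 and 49.0 in replicate 1 and 40.1 and 50.4 in replicate 2 for the same subunits. The median percentile was 49.3 for mitochondrial ribosomal protein genes and 58.6 for proteasome subunit genes.

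**Figure D1:**
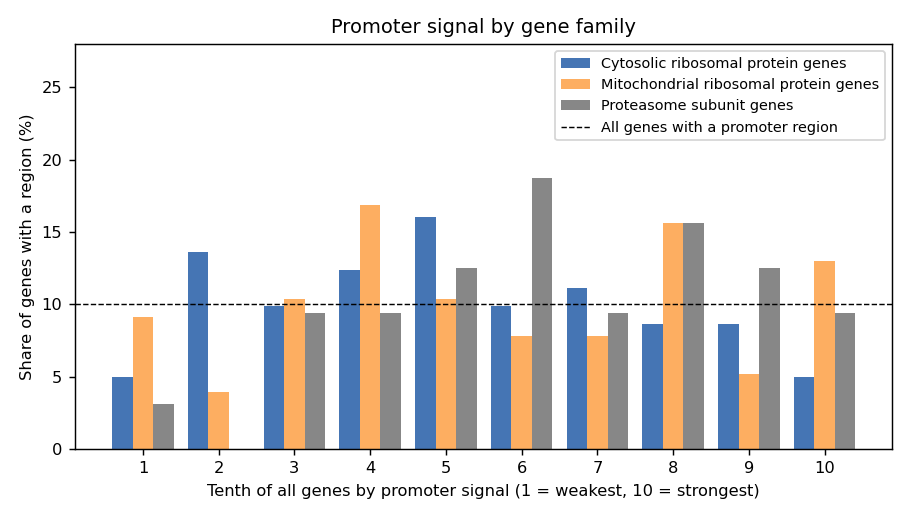
Share of open genes of each family (y axis, percent) in each 10% of all open genes by promoter signal in the conservative list (x axis), for 81 cytosolic ribosomal protein genes, 77 mitochondrial ribosomal protein genes and 32 proteasome subunit genes. The dashed line is the 10% that all open genes have in each bin, and 4 of the 81 cytosolic genes are in the strongest bin.

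The strongest promoter of the family was Rplp0, the scaffold of the stalk that recruits translation factors. Its signal was 22.0 in the conservative list, at percentile 96.0, with 19.9 in replicate 1 and 18.5 in replicate 2. The other stalk genes were in the middle: Rplp1 had 13.8, with 12.4 in both replicates, and Rplp2 had 12.7, with 12.3 in replicate 1 and 12.4 in replicate 2. Rplp0 thus stood apart from its stalk partners in both libraries, while Rplp1 and Rplp2 had overlapping values.

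Next below Rplp0 and Rps27l came Rpl11, which with Rpl5 and 5S RNA forms the particle that binds and inhibits Mdm2. Rpl11 had a signal of 20.4, with 16.0 in replicate 1 and 17.2 in replicate 2. Its partner Rpl5 had 12.5, with 10.6 in replicate 1 and 10.7 in replicate 2, so the pair did not overlap in any list. Also among the strongest 10 were Rpl27 and Rpl15 at 19.5 each, Rpl29 at 19.2, Rpl7l1 at 19.0 and Rpl13 and Rps13 at 18.1 each. All 10 were above percentile 64 in both libraries' own lists, the lowest being Rpl13 in replicate 1 at 64.9.

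The weakest promoter was Rpl36, with a signal of 5.59 at percentile 1.02, and with 5.18 in replicate 1 and 5.43 in replicate 2. It was thus near the bottom of all open genes in every list. Rpl7a followed at 7.41 and was in replicate 2's list at 7.47 but not in replicate 1's. Rpl35 had 7.87, with 7.29 in replicate 1 and 8.02 in replicate 2. Also among the weakest 10 were Rps15a at 8.47, Rpl8 at 8.48, Rpl28 at 8.83, Rpl38 at 8.87, Rpl7 at 9.06 and Rpl4 at 9.12. Rpsa, the laminin receptor protein of the small subunit, was below the middle at 11.8, with 11.1 in each replicate.

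**Figure D2:**
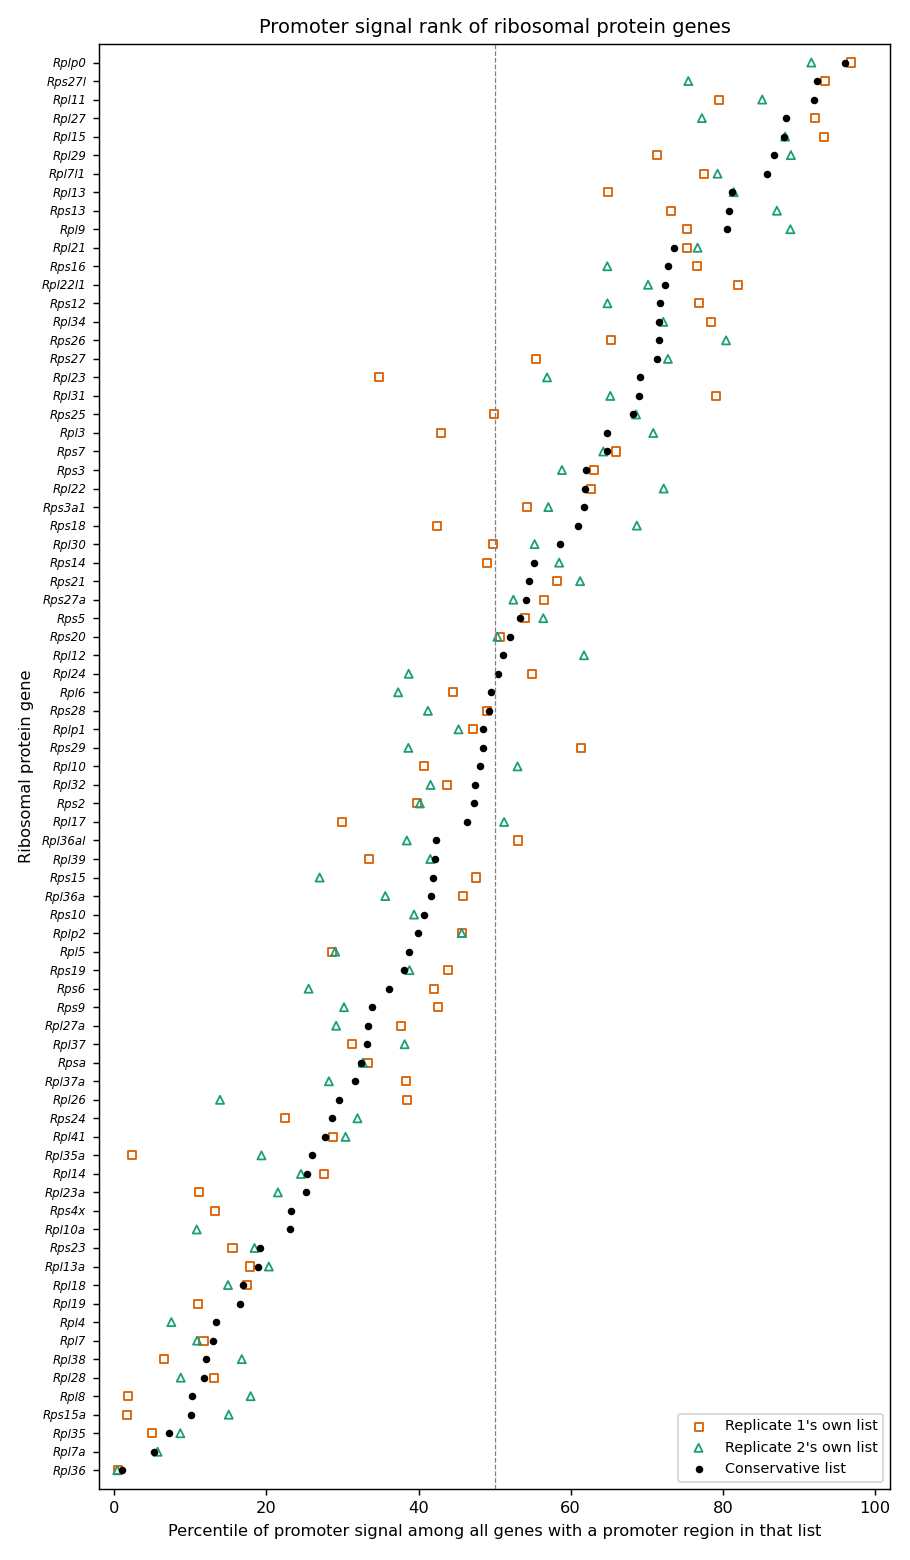
Percentile of promoter signal among all open genes of a list (x axis) for 77 of the 81 open ribosomal protein genes (rows, strongest at the top), in the conservative list (black), replicate 1 (squares) and replicate 2 (triangles). A missing square or triangle means that the library's own list had no region there. Rplp0 is at the top at 96.0 and Rpl36 at the bottom at 1.02, and the libraries keep much the same order.

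The order within the family was similar in both libraries. Of the 81 open genes, 74 were in both libraries' own lists (91.4%), against 88.7% of all open genes, and the other 7 were in 1 library each. Over those 74 genes the percentiles in replicates 1 and 2 had a Spearman rho of 0.885, against 0.892 over 8213 genes in all, as a description without a test. The median difference between libraries was 8.66 percentile points in the family. The widest gap was at Rpl3, which contributes to the peptidyl transferase center, at percentile 42.9 in replicate 1 and 70.8 in replicate 2.

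Missing from replicate 1's list were Rpl4, Rpl7a, Rpl10a, Rpl12 and Rps10, and missing from replicate 2's were Rpl19 and Rps4x. All 81 genes had a region in each library's ranked list before the threshold, in which 45.1% of all genes had one in replicate 1 and 45.6% in replicate 2. The 7 absences were therefore peaks that missed the threshold. Rpl12, a protein of the stalk base, had a signal of 8.93 in replicate 1's ranked list and 14.2 in replicate 2's, and Rpl10a had 10.2 in replicate 1's and 8.38 in replicate 2's. Signals of different lists may be scaled differently. The threshold corresponds to an irreproducible discovery rate (IDR) of 0.05, and the score (−log10 IDR) of Rpl12 was 0.803 in replicate 1 and 2.52 in replicate 2. In replicate 2, Rps4x scored 0.733 and Rpl19 scored 0.833.

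Genes linked to Diamond-Blackfan anemia were open without exception, as were the other standard genes. All 19 genes of that list had a promoter region, and 18 were in replicate 1's list and 19 in replicate 2's. Their median percentile was 40.7, and they spanned nearly the whole family, with Rpl11 at 92.0 and Rpl35 at 7.17. Rps19 had a signal of 12.5, with 12.1 in replicate 1 and 11.7 in replicate 2, at percentile 38.1. Its region was 958 bases wide, against a median of 619 in the family. Rpl35a, another gene of the list, had a signal of 11.0, with 6.52 in replicate 1 and 9.59 in replicate 2.

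Ribosomal proteins whose symbols fall outside the rule were open and weak. Fau, whose product is cut to the small subunit protein eS30, had a signal of 8.74, with 7.50 in replicate 1 and 8.18 in replicate 2. Rack1, a scaffold on the small subunit, had 11.1, with 11.0 in replicate 1 and 9.75 in replicate 2. Both were below the family's median of 13.6. Other fixed lists were also largely open: 24 of 24 genes for ribosome biogenesis, 11 of 11 for RNA polymerase I and its factors, and 14 of 15 of a list of other genes with TOP messages, which holds translation factors such as Eef1a1 and also Npm1, Tpt1, Nap1l1, Hnrnpa1 and Vim. In the first of these lists Ltv1, which helps mature the small subunit, reached 23.3, above any ribosomal protein gene, and Gnl3 had 7.65. Vim, which encodes the filament protein vimentin, was that last list's gene without a conservative region, and replicate 1's own list had one there.

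The regions sat closely on the annotated starts. The summit lay a median of 27 bases upstream of the main start in the family and 49 bases upstream in all open genes. It was within 200 bases of that start in 73 of 81 genes (90.1%), against 71.3% of all open genes. The share was 85.7% in open mitochondrial ribosomal protein genes and 87.5% in open proteasome genes, so close seating was not particular to this family. The region covered the main start in 92.2% and 96.9% of the open genes of those families, and in 82.2% of all open genes. In the cytosolic family it did so in 78 of 81 genes (96.3%). The exceptions were Rpl4, Rpl35 and Rpl38, all of the large subunit and all among the weakest 10. The region at Rpl4 ended 185 bases upstream of its start and was shared with the start of Zwilch, a kinetochore gene. The regions at Rpl35 and Rpl38 began 264 and 442 bases downstream of theirs. The median width was 619 bases in the family and 645 in all open genes, and 39.5% of the family's regions had a single summit, against 46.5% of those of all open genes. Across the 81 genes, width and signal had a Spearman rho of 0.05, so wide regions were not the strong ones.

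**Figure D3:**
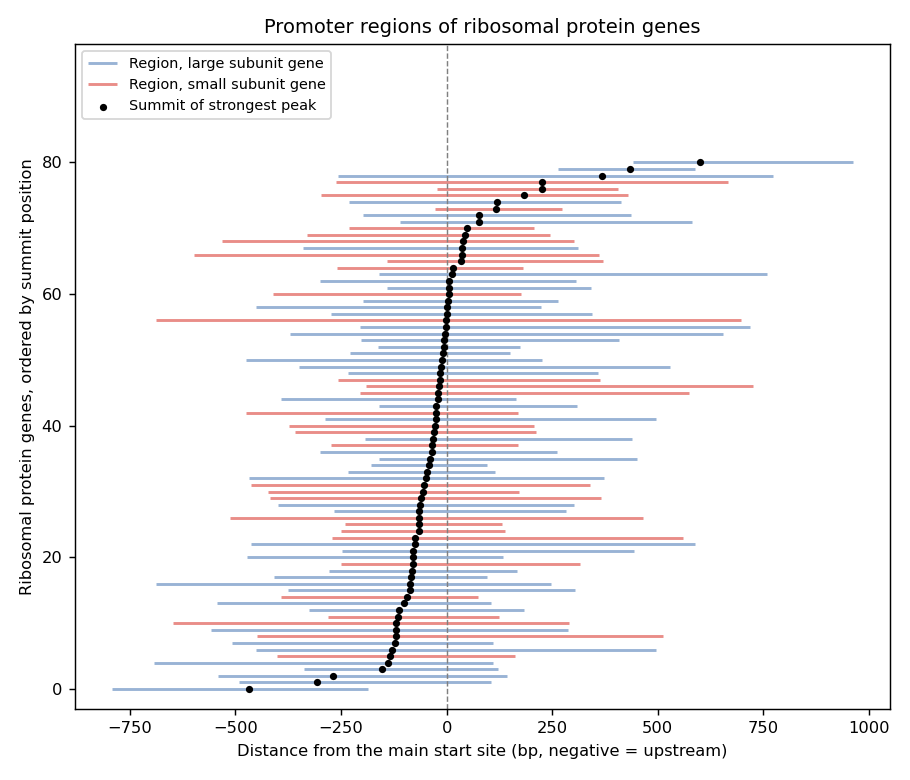
Extent of the promoter region (horizontal lines) and summit of its strongest peak (dots) relative to the main annotated start (x axis, bases, negative is upstream) for the 81 open ribosomal protein genes, ordered by summit (y axis), with large subunit genes in blue and small subunit genes in red. Most dots lie within 200 bases of the start, and the region does not reach the start at Rpl4 at the bottom and at Rpl35 and Rpl38 at the top.

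In 14 of 81 genes (17.3%) the region also reached a start of another coding gene, against 21.8% of all open genes and 39.0% of open mitochondrial ribosomal protein genes. The 10 strongest of these pairs were Rpl15 with Nkiras1, Rpl9 with Lias, Rps27 with Rab13, Rps25 with Trappc4, Rps18 with Vps52, Rps27a with Clhc1, Rpl12 with Lrsam1, Rps28 with Ndufa7, Rpl36al with Mgat2 and Rps10 with RPS10-NUDT3. The last of these is annotated as a readthrough gene that includes Rps10 itself. At such a pair the signal cannot be assigned to either gene. No region was shared between members of the family.

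The family's genes were short, with a median length of 3221 bases against 17380 bases for all genes. Of the 91 genes, 30 (33.0%) had snoRNA genes within them, against 1.26% of all genes. They held 58 snoRNA genes in all, with 5 in Rpl4 and 4 in Rpl13a. Their promoters were rich in CpG: from 250 bases before to 50 after the start, the observed to expected CpG ratio had a median of 0.822 in the family and 0.557 in all genes. Among open genes alone the ratio was 0.854 in the family and 0.793 in all, and the GC content was 56.0% in the family and 60.7% in all.

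Some short sequences were more frequent at the family's summits. Within 100 bases of the summit on either side, CCGGAA was in 42 of 81 regions (51.9%, 95% Wilson interval 41.1 to 62.4), against 30.3% of the 8131 promoter regions of all genes. It was in 56.6% of mitochondrial ribosomal protein gene regions and 53.1% of proteasome gene regions, so the ETS letters were not particular to the cytosolic family. TCTCGCG was in 16 of 81 regions (19.8%, 12.5 to 29.7), against 5.17% in all. Its share was 5.26% in mitochondrial ribosomal protein gene regions and 12.5% in those of proteasome genes. CTTTCC was in 29 of 81 (35.8%, 26.2 to 46.7), against 16.6% in all, and its letters can overlap those of the ETS core. The letters TATAAA were in 8 of 81 (9.88%, 5.09 to 18.3), against 2.18% in all. Within 50 bases of the summit they were in 4.94% against 1.07%, and within 200 bases in 11.1% against 5.95%. The order turned in the window from 250 bases before to 50 after the start, which takes in genes without a promoter region too. There they were in 10.99% of the 91 genes and 12.6% of all genes. Of the 10 genes with a match there, 7 had it downstream of the annotated start. The median position over the 10 was 17 bases after that start. These positions depend on where the start is annotated, and whether any match works as a core promoter box was not tested. AAGATGG was in 11 of 81 (13.6%, 7.76 to 22.7), against 6.10% in all, and in 13.2% of mitochondrial ribosomal protein gene regions and 21.9% of proteasome gene regions. Within 50 bases of the summit it was in 2.47% of the family's regions and 2.50% of all, so its excess depends on the window. The intervals cover counting error only.

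Of 12 motifs searched, 7 were more frequent in the family. These were the 5 above, GCGCATG (part of the NRF1 site) in 12.3% against 6.57%, and TGACG (part of the cAMP response element) in 37.0% against 31.6%. The shares of the other 5 were lower in the family: GGGCGG (GC box) was in 58.0% against 64.0%, CCAAT (NF-Y) in 27.2% against 39.3%, CACCC (KLF factors) in 38.3% against 50.7%, CACGTG (E-box) in 8.64% against 9.15%, and AGATAA (bound by GATA1) in 2.47% against 3.25%. The direction of 3 of these was not the same in every window. The start window also takes in genes without a promoter region, so the set of genes changes too. There GGGCGG was in 49.5% of the 91 genes and 45.4% of all genes, CACGTG in 10.99% and 7.71%, and AGATAA in 9.89% and 9.80%. Around the summits, GGGCGG and AGATAA were lower in the family at every width. Within 200 bases of the summit AGATAA was in 2.47% of the family's regions and 7.65% of all, and CACGTG in 18.5% and 13.6%. CCAAT and CACCC were less frequent in the family in every window tried. The 2 genes with AGATAA at the summit were Rpl8 and Rpl36a.

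**Figure D4:**
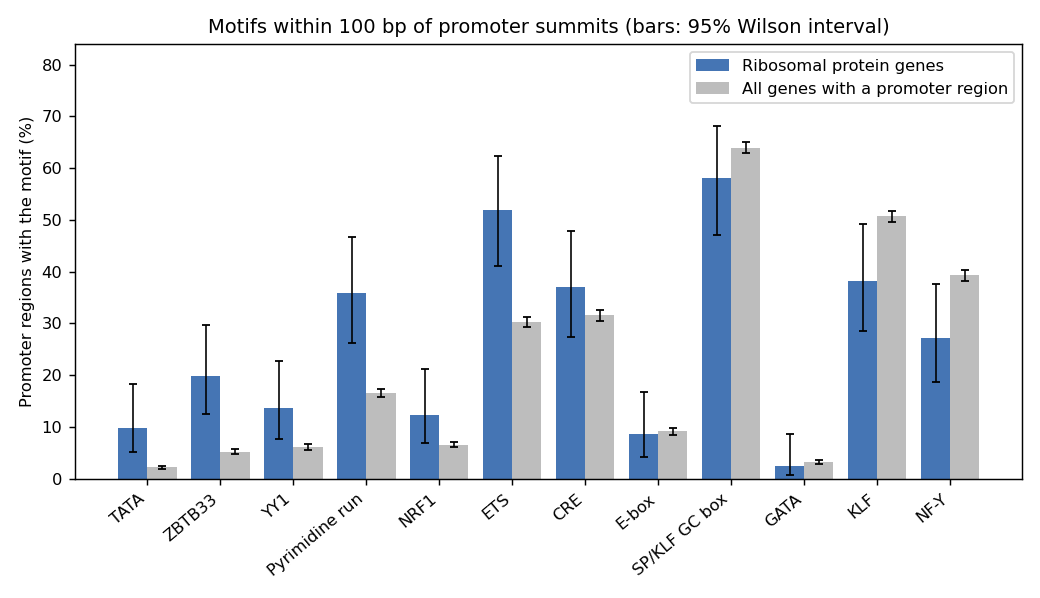
Share of promoter regions (y axis, percent) with each of 12 short motifs, on either strand, within 100 bases of the summit, for 81 ribosomal protein gene regions (blue) and 8131 regions of all open genes (grey). Error bars are 95% Wilson intervals, and motifs are ordered by the ratio of the shares. The intervals of the family lie above the shares of all genes for the TATA letters, ZBTB33, YY1, the pyrimidine run, NRF1 and ETS, and below them for KLF and NF-Y.

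The motifs did not sort the family's promoters cleanly by signal. Genes with TCTCGCG had a median signal of 11.8, against 13.8 for the 65 without it, while in all promoter regions those with it had 13.8 and those without 13.9. The 16 genes with it included Rpl7a, Rpl10a, Rpl12, Rpl17, Rpl23a, Rpl26, Rpl28, Rps2, Rps3a1, Rps6, Rps7, Rps13, Rps15a and Rps28, and Rps13 was the strongest of them at 18.1. Genes with CCGGAA had a median of 13.8, against 13.0 without, and in all promoter regions the medians were 14.7 with and 13.6 without. The ranges overlapped widely, since Rpl36 at 5.59 and Rps27l at 20.5 both carry CCGGAA.

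The pyrimidine start was more frequent in the family but was seen at few annotated starts. A C followed by at least 4 pyrimidines stood at the main start of 9 of 91 genes (9.89%), against 2.25% of all genes. The first 20 bases of 8 of these messages follow, with the pyrimidine run in capitals, because the run is the feature counted.
Rps24, chr14:24490718-24490737, plus strand: CTCTTTTCCTCCTCTCCagc
Rpl32, chr6:115808728-115808747, minus strand: CTTCCTTCTTCCTCggcgct
Rpl4, chr9:64173375-64173394, plus strand: CTTTTCCTgtgggagcagcc
Rps21, chr2:180257377-180257396, plus strand: CCCTCCTgcccaatagtgct
Rpl37, chr15:5116645-5116664, plus strand: CTCTTCCggtctctttggcc
Rpl36, chr17:56613416-56613435, plus strand: CTTCCTgtcccggccgccat
Rpl37a, chr1:72711290-72711309, plus strand: CTCTTCggacttgggcttgg
Rps27rt, chr9:114982720-114982739, minus strand: CTTTCCggcggtgacgacct
The longest run, of 17 bases, was at Rps24. With a start allowed within 5 bases of the annotated one, 26 of 91 genes (28.6%) had such a run, against 18.2% of all genes, and within 10 bases 42 of 91 (46.2%) had, against 30.8%. From RefSeq starts, in an alternative added after the data had been seen, 14 of 65 genes had it (21.5%), against 2.71% of all genes with a RefSeq start. The count thus depends on where the start is annotated. Rps27rt has the layout and no promoter region, and Rpl36 has it with the weakest region of the family.

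Distal regions were as common around these genes as around other open genes. A distal region had its summit over 1 kb from every coding start and lay within 50 kb of the gene body. At least 1 was near 65 of the 91 genes (71.4%), against 50.6% of all genes. Among open genes alone the share was 61 of 81 (75.3%), against 71.6% in all. The mean was 1.67 per gene in the family and 1.19 in all genes. Among open genes it was 1.80 in the family and 1.78 in all. In the libraries' own lists, over all 91 genes, the mean was 1.01 ± 0.12 in the family and 0.709 ± 0.093 in all genes (SD, n = 2). Within 20 kb of the gene body, in the conservative list, the mean was 0.692 in the family and 0.675 in all genes. The stretch searched includes the gene body, which was shorter in the family, with a median of 3221 bases against 17380. Whether this bears on the counts was not tested. Mitochondrial ribosomal protein genes had a mean of 1.15 within 50 kb and proteasome genes 1.47.

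**Figure D5:**
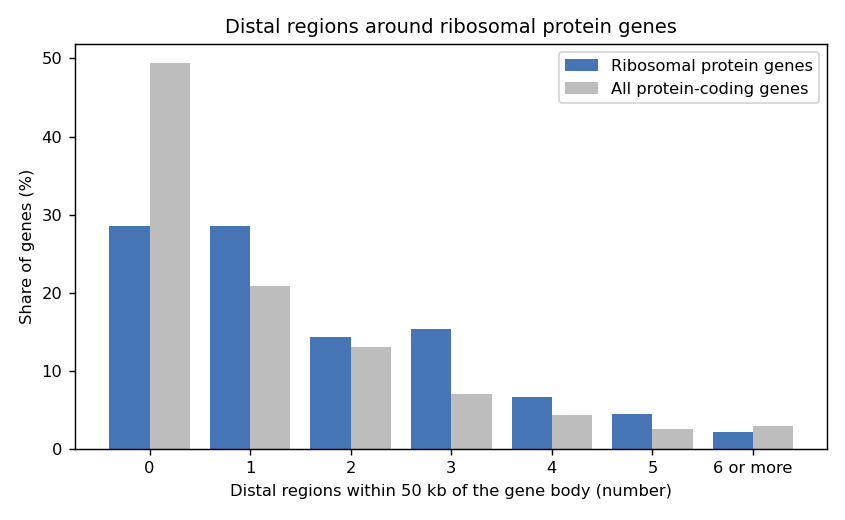
Share of genes (y axis, percent) by how many distal regions lay up to 50 kb away (x axis), for 91 ribosomal protein genes (blue) and 21853 protein-coding genes (grey). No distal region was found near 28.6% of ribosomal protein genes and 49.4% of all genes, and 2.20% of the family had 6 or more, against 2.90% of all genes.

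Rpl18 had the most distal regions, 8, of which 2 were in both libraries' own lists. Rps21 had 6, of which 3 were in both lists, and its promoter signal was 14.5. Rpsa, Rps19, Rps29 and Rpl14 had 5 each. At Rps19, 3 of the 5 were in both libraries, with signals of 14.7, 14.0 and 16.7, each above the 12.5 of its promoter. These lay 38.3, 30.9 and 24.7 kb from the gene body. At Rpl14 all 5 were in both libraries, the nearest at 2.16 kb with a signal of 5.14 and AGATAA at its summit. Nearness assigns no region to a gene.

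In all, 146 distinct distal regions lay near the family, with a median signal of 9.20, against 9.36 for all 10583 distal regions. Of the 146, 34 held AGATAA within 100 bases of the summit (23.3%), against 25.5% of all distal regions and 2.47% of the family's promoter regions. In both libraries' lists were 70 of them (47.9%), against 42.7% of all distal regions. Only 4 of the gene and region pairs had the region inside the ribosomal protein gene itself. Across the 81 open genes, the number of distal regions and the promoter signal had a Spearman rho of 0.00, against −0.21 over 9244 open genes, as a description.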

How the data were processed

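ATAC-seq had been run on 2 libraries of 1 group. The authors deposited narrowPeak lists on mm10, per the labels, from each library, the pooled libraries and the comparison of replicates. Aligner, peak caller, read filters and depth: not given in the sources used here. The deposited signal is the authors' value per peak, of unstated scaling, and was ranked only within a list. The deposited −log10 p was an alternative rank, and the deposited score is −log10 IDR. Overlapping peaks were merged and the strongest peak gave signal and summit. Genes and starts (54327) came from GENCODE M21 on GRCm38, and sequences from the RefSeq copy of that build; RefSeq promoter starts served an alternative. Regions reaching within 1000 bases of any coding start were promoters. The steps were tested on simulated regions. Python 3.11.15, pandas 2.3.3 and numpy 2.4.6 were used. Alternatives changed the list, window, distance, motif window, starts and members. Named genes were those without a region, the 10 strongest and weakest, those in 1 library, the 5 with most distal regions (ties kept), shared promoters and fixed lists; genes with given motifs or starts were named after their values were seen. The members and lists were chosen with earlier results of these data known. No sequence is printed for the 2 members on chromosome 18. Some genes are not reported here by name.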

Additional observations from a re-analysis of the deposited data

How the results depend on the processing

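The number of open ribosomal protein genes was 76 to 82 under every alternative list, threshold, window and start set that kept all 91 genes, and 77 of 77 without the copies. The median signal percentile was 47.4; it was 41.5 to 45.1 with 1 library left out and 50.1 by −log10 p, so whether the family lies just below the middle depends on the measure. The mean number of distal regions, 1.67, was 0.692 within 20 kb (0.675 for all genes), 2.48 within 100 kb (1.99), 4.23 in the looser list (3.40), 1.82 without the copies, and 0.923 to 1.09 with 1 library left out. The difference from all genes is nearly gone at 20 kb and among open genes. Pyrimidine starts were at 9 of 91 genes exactly (2.25% of all genes), at 26 within 5 bases (18.2%), at 42 within 10 bases (30.8%) and at 14 of 65 by RefSeq starts (2.71%), the last chosen after seeing the data; the excess over all genes is smaller with the wider tolerances. Of 12 motifs, 7 were more frequent in the family, and 6 to 9 were with other windows. The YY1, TBP box, GC box, E-box and GATA1 letters each change direction in at least 1 of them. For the TBP box, GC box and GATA1 letters this is only the start window, which also takes in genes without a promoter region. Read depth is unknown, and a region missing at a near-identical copy cannot be told apart from reads that were not placed there.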
